A study of Mus musculus with 5 samples.

Results

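Subunit genes of the SWI/SNF chromatin remodelling complexes were followed through RNA sequencing libraries of Ba/F3 cells, an interleukin-3-dependent mouse pro-B cell line. The members are SMARCA4, SMARCA2, SMARCC2, SMARCC1, SMARCD1, SMARCD2, SMARCB1, SMARCE1, ARID1A and ARID2. They were taken by gene name, and all 10 were found among the 50867 genes of the table. The cells had been infected with lentivirus, and each of the 5 groups was 1 library. PMSCV, named as a vector is, was taken as the reference. S_PXT1 and WT are the other constructs, and the names S_PXT1_K118R and WT_K118R add a lysine-to-arginine substitution. The labels do not spell out S or WT, give no time after infection, and do not say whether a library came from a clone or a pool of infected cells. With 1 library a group, no difference has a replicate check, no p-value is given, and each interval covers counting error alone.

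SWI/SNF complexes use the energy of ATP to slide or evict nucleosomes, which opens promoters and enhancers to transcription factors. Each complex is built around 1 of a pair of interchangeable ATPases and a scaffold of core subunits that often come as paralogs. A DNA-binding ARID subunit tells the canonical BAF form (ARID1A or ARID1B) from the PBAF form (ARID2), and a non-canonical form with BRD9 has no ARID subunit. Blood and lymphoid cells depend on these complexes for lineage gene programmes, and several subunit genes are mutated in leukaemias and solid tumours.

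Counts in the table were assigned to human gene models, although the labels give mouse cells, and a symbol below means the human model. Whether the counted reads came from mouse or human RNA was not tested, and values are compared mainly between libraries. Total counts ran from 250409 to 351693, so 1 count was worth between 2.92 and 3.95 CPM (a library-size unit, scaled here by the trimmed mean of M values, TMM). The number of genes with a count was 7393 with S_PXT1 and 7044 with S_PXT1_K118R, against 11492 to 11712 in the other libraries. Of 15 blood-lineage markers, between 4 and 8 had any count. The pre-B and B cell genes CD79A, CD79B, VPREB1 and IGLL1 and the interleukin-3 receptor gene IL3RA had no count in any library, a result that allows up to 3 counts each. Of those detected, IKZF1, a lymphoid transcription factor, had 24 to 34 counts. SPI1, a myeloid and B cell factor, had 113 to 173 in 4 libraries and 1 in WT_K118R. LCP1, an actin-bundling protein of leukocytes, had 3 counts each in S_PXT1 and S_PXT1_K118R and 67 to 117 in the others. A set of 10 squamous epithelial markers summed to 0 counts with S_PXT1 and 1 with S_PXT1_K118R, whereas PMSCV had 352, WT 1046 and WT_K118R 590. In PMSCV, S_PXT1, S_PXT1_K118R, WT and WT_K118R, the order used for all lists of 5 values below, 5 plasma cell markers summed to 653, 2, 2, 457 and 22 counts and 5 smooth muscle markers to 71, 1, 0, 289 and 11. The 4 prostate markers summed to 129, 0, 0, 127 and 128, with ACP3 at 0 in 4 libraries. The 7 fibroblast and endothelial markers summed to 450, 187, 195, 472 and 590, and COL1A1 and COL3A1 carried most of it with S_PXT1 (100 and 73 counts) and S_PXT1_K118R (91 and 95). In those libraries the other 5 genes had between 0 and 6 counts, with PECAM1 and VWF at 0. The part these differences between libraries play in the values below was not tested. The labels name a single cell line, and where the reads on these markers came from was not tested. In bulk RNA, fewer cells of a type, less RNA per cell and RNA of another origin cannot be told apart.

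Because several members are paralogs that fill the same place in the complex, the mouse coding sequences were compared to see how far a short read could be told apart between partners. The sequences below hold the longest run of identical bases in each paralog pair, in capitals, with 15 bases of coding sequence on each side in lower case, from the longest complete coding transcript of GENCODE M21 on GRCm38.
Smarcc2 (chr10:128485605-128485660, plus strand, exon 25): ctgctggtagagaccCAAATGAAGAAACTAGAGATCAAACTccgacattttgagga
Smarcc1 (chr9:110213554-110213609, plus strand, exon 25): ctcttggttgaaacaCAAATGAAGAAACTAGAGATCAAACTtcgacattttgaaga
Smarca4 (chr9:21635730-21635779, plus strand, exon 4): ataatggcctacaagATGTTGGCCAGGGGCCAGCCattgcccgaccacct
Smarca2 (chr19:26630870-26630919, plus strand, exon 4): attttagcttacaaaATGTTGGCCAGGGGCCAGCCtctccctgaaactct
Smarcd1 (chr15:99712200-99712247, plus strand, exon 12): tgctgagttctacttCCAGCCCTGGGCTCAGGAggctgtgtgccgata
Smarcd2 (chr11:106264208-106264255, minus strand, exon 12): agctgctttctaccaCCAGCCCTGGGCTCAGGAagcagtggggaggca

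The longest shared run was 26 bases for Smarcc2 and Smarcc1, 20 for Smarca4 and Smarca2, and 18 for Smarcd1 and Smarcd2. Of the 3618 words of 25 bases in the Smarcc2 coding sequence, 2 also occurred in Smarcc1. None of the 4830 such words of Smarca4 occurred in Smarca2, and none of the 1524 of Smarcd1 in Smarcd2. These are mouse sequences compared with each other, so the comparison does not say how reads divide between the human models.

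All 10 members had counts in all 5 libraries, and all 10 reached the mean of 1 CPM set for entering a comparison, although 3 of them, SMARCC1, SMARCD1 and SMARCD2, had means under 20 counts. The members summed to 734, 953, 863, 1128 and 932 counts, or between 0.268% and 0.368% of a library. SMARCE1 held 32.5% of all member counts, ARID1A 27.3% and SMARCC2 14.4%. Per length, in the authors' deposited FPKM (counts divided by model length and library size), the levels ran from 60.9 to 72.1 for SMARCE1 and from 52.0 to 63.1 for SMARCB1. They ran from 23.5 to 61.6 for SMARCC2, 24.4 to 48.2 for ARID1A and 14.2 to 23.2 for ARID2. The ATPases lay lower, at 6.51 to 7.55 for SMARCA4 and 2.67 to 4.99 for SMARCA2. SMARCD2 had 5.37 to 8.50, SMARCD1 2.32 to 4.52 and SMARCC1 0.418 to 3.39. The order of these FPKM levels is that of reads on human models, not a measured stoichiometry.

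**Figure D1:**
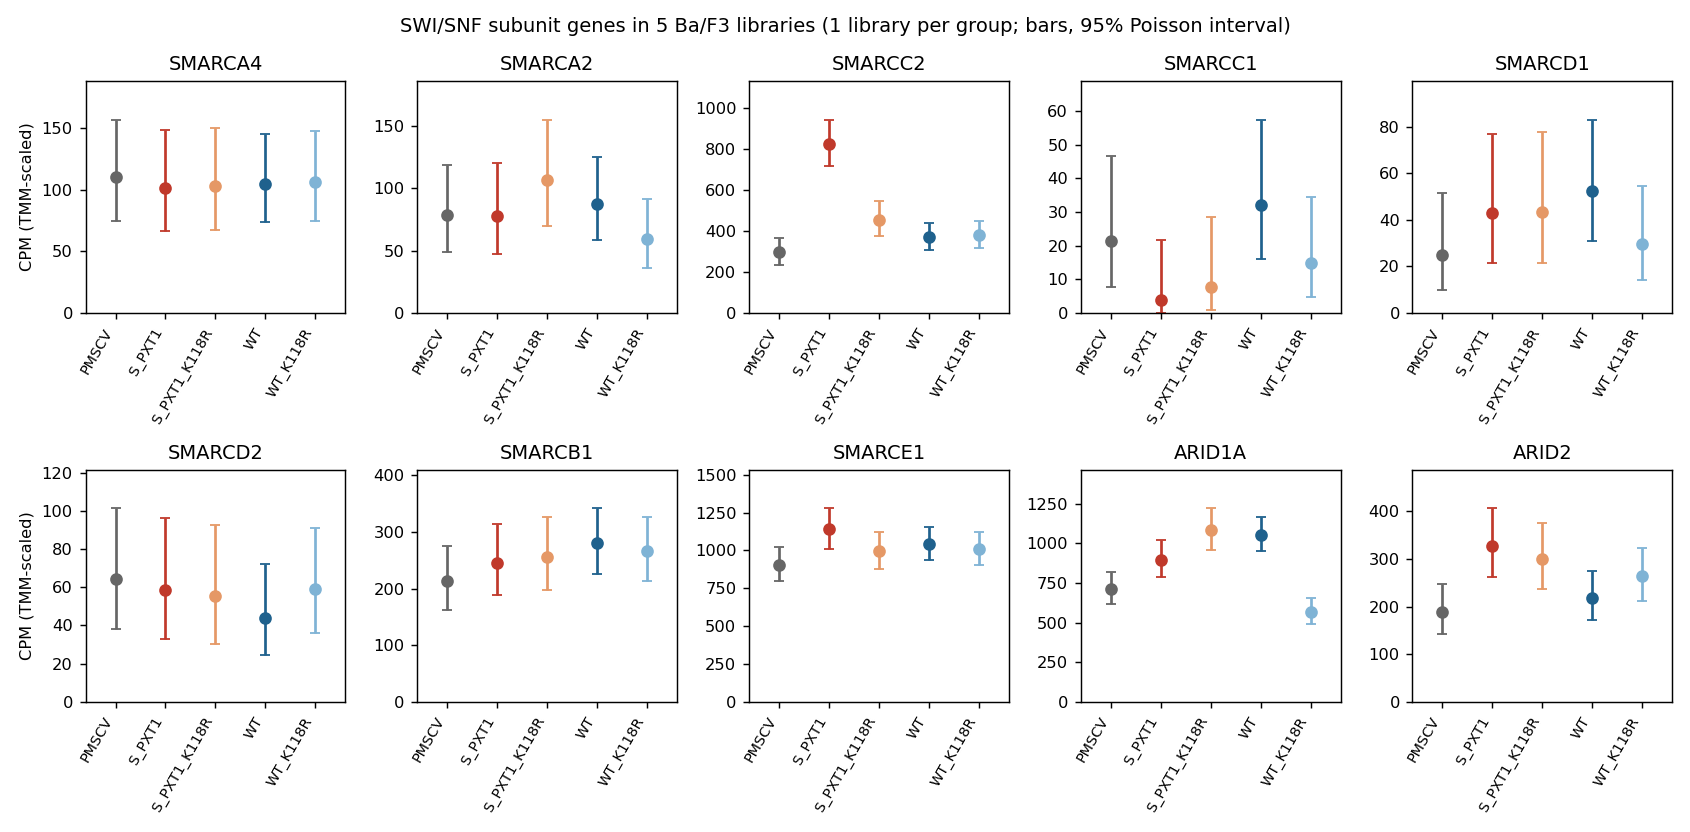
TMM-scaled CPM (vertical axis, from 0, own scale for each gene) of the 10 subunit genes in the 5 libraries (horizontal axis), with exact 95% Poisson intervals as bars and 1 library per point. SMARCC2 stands apart in S_PXT1 at 823 CPM, ARID1A is lowest in WT_K118R at 570 CPM, and SMARCA4 lies between 101 and 110 CPM throughout.

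The ATPases were described first. SMARCA4 (ENSG00000127616, chromosome 19, 10961001 to 11065395; BRG1, 1 of the alternative motors of the complex) had 31, 26, 26, 36 and 36 counts. Scaled, it stood between 101 and 110 CPM, a highest-over-lowest fold of 1.09 (0.63 to 1.91), and none of its 10 library pairs had an interval that excluded 1. SMARCA2 (ENSG00000080503, chromosome 9, 2015219 to 2193624; BRM, the other motor) had 22, 20, 27, 30 and 20 counts. Its highest level, 107 CPM in S_PXT1_K118R, was 1.80-fold that of its lowest, 59.1 CPM in WT_K118R (0.97 to 3.39). That interval excluded 1 with size factors from DESeq2 (1.87, 1.01 to 3.51) and with total counts (1.87, 1.01 to 3.53). SMARCA4 made up 58.5%, 56.5%, 49.1%, 54.5% and 64.3% of the counts of the 2 ATPases, lowest with S_PXT1_K118R (Clopper-Pearson interval 35.1 to 63.2) and highest with WT_K118R (50.4 to 76.6). The 5 intervals overlap, and a shift between the motors of the size seen here was not detectable at this depth.

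Among the scaffold subunits, SMARCC2 had the member set's largest differences at a mean of at least 20 counts. SMARCC2 (ENSG00000139613, chromosome 12, 56162983 to 56189567, minus strand; BAF170, part of the dimer on which the core assembles) had 83, 211, 115, 127 and 128 counts. These correspond to 296 CPM (interval 235 to 366), 823 (716 to 942), 454 (375 to 545), 370.3 (309 to 441) and 378 CPM (315 to 450). S_PXT1 was high and did not overlap any other library, and the other 4 followed each other without a gap. S_PXT1 lay 1.81-fold (1.44 to 2.30) above the next library, S_PXT1_K118R. The neighbours S_PXT1_K118R and WT_K118R (1.2, 0.92 to 1.56), WT_K118R and WT (1.02, 0.79 to 1.32), and WT and PMSCV (1.25, 0.94 to 1.67) did not differ beyond counting error. S_PXT1_K118R was 1.54-fold PMSCV (1.15 to 2.06), so 5 of the 10 library pairs had intervals that excluded 1. The squamous, plasma cell, smooth muscle and prostate sums were at 2 counts or fewer in both S_PXT1 and S_PXT1_K118R. The fibroblast and endothelial sums were 187 and 195 counts there. All these sums were higher in PMSCV, WT and WT_K118R. The part of these markers in the SMARCC2 differences was not tested.

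The SMARCC2 model shares 514 bases, 56162983 to 56163496, with MYL6, a myosin light chain gene on the other strand. The sources used here do not give the strand setting of the counting, so reads in the shared bases cannot be told apart between the genes. MYL6 had 204, 286, 157, 248 and 198 counts. It was 1.54-fold higher in S_PXT1 than in PMSCV (1.28 to 1.85), a smaller fold than that of SMARCC2. Between S_PXT1_K118R and S_PXT1 its fold was 0.56 (0.45 to 0.68), beside 0.55 (0.44 to 0.70) for SMARCC2. The ratio of SMARCC2 to MYL6 counts was accordingly 0.738 in S_PXT1 and 0.732 in S_PXT1_K118R, and 0.407 in PMSCV, 0.512 in WT and 0.646 in WT_K118R. Counted as 1 unit, SMARCC2 and MYL6 together were 1.9-fold higher in S_PXT1 than in PMSCV (1.64 to 2.2) and 1.77-fold higher than in WT (1.55 to 2.03), both under 2-fold, and had a fold of 0.55 (0.48 to 0.64) in S_PXT1_K118R over S_PXT1. MYL6 gave more of the summed counts than SMARCC2 in every library. The fold of the sum lies between those of the 2 genes and is not a fold of SMARCC2. This sum was added after seeing the data, and how many reads lie in the shared bases was not tested. Other overlapping models of the 10 members had between 0 and 4 counts in any library.

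SMARCC1 (ENSG00000173473, chromosome 3, 47585272 to 47782106; BAF155, the partner or substitute of SMARCC2) had 6, 1, 2, 11 and 5 counts. Only the extremes, WT over S_PXT1, gave an interval that excluded 1, at a ratio of 8.22 (1.19 to 354). The low values sit in the libraries with the fewest genes detected, and the part of detection in this was not tested. SMARCC2 made up 93.3% of the counts of the 2 paralogs in PMSCV (85.9 to 97.5), 92.0% in WT (86.2 to 96.0), 96.2% in WT_K118R (91.4 to 98.8), 98.3% in S_PXT1_K118R (94.0 to 99.8) and 99.5% in S_PXT1 (97.4 to 100). The S_PXT1 interval lies above that of WT and overlaps the other 3.

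Of the remaining core subunits, 1 had a library pair that differed beyond counting error. SMARCE1 (ENSG00000073584, chromosome 17, 40624962 to 40648508; BAF57, an HMG-box subunit) had 254, 292, 252, 358 and 341 counts. Its levels lay between 904 CPM in PMSCV and 1139 CPM in S_PXT1, a fold of 1.26 (1.06 to 1.5), the single pair of 10 whose interval excluded 1. SMARCB1 (ENSG00000099956, chromosome 22, 23786963 to 23834516; SNF5, the tumour suppressor of rhabdoid tumours) had 60, 63, 65, 96 and 90 counts, or 214 to 280 CPM, and a highest-over-lowest fold of 1.31 (0.94 to 1.84). SMARCD1 (ENSG00000066117, chromosome 12, 50084972 to 50100712; BAF60A) had 7, 11, 11, 18 and 10 counts, and SMARCD2 (ENSG00000108604, chromosome 17, 63832081 to 63843065; BAF60B, needed for granulocyte maturation) had 18, 15, 14, 15 and 20. For SMARCB1, SMARCD1 and SMARCD2, no library pair of 10 had an interval that excluded 1. SMARCD1 took 28.0% of the counts of the SMARCD pair in PMSCV (12.1 to 49.4) and 54.5% in WT (36.4 to 71.9), the lowest and highest of the 5 libraries, with overlapping intervals. Over the 1547 genes averaging 20 counts or more the median highest-over-lowest fold was 1.48. Of the members at that mean, SMARCA4 (1.09), SMARCE1 (1.26) and SMARCB1 (1.31) lay below this median. ARID2 (1.74), SMARCA2 (1.80), ARID1A (1.9) and SMARCC2 (2.79) lay above it.

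SMARCE1 allows a comparison within each library that needs no scaling factor. The count ratio of SMARCC2 to SMARCE1 was 0.327, 0.723, 0.456, 0.355 and 0.375. S_PXT1 was again the highest, and the S_PXT1 ratio was 2.21-fold that of PMSCV (1.71 to 2.89) and 2.04-fold that of WT (1.63 to 2.56). This shows unequal change of the 2 genes and not which of them changed. The choice of SMARCE1 was made after its values were seen. Intervals scaled to SMARCE1, here and below, take its counts as fixed. They leave out the counting error of SMARCE1 and so are too narrow.

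The ARID subunits had different orders of libraries. ARID1A (ENSG00000117713, chromosome 1, 26696033 to 26782104; BAF250A, the most often mutated SWI/SNF gene in cancer) had 200, 230, 275, 362 and 193 counts. The levels were 712 CPM (617 to 818), 897 (785 to 1021), 1085 (961 to 1221), 1055 (949 to 1170) and 570.3 CPM (493 to 657). WT_K118R was the lowest and PMSCV the next, 1.25-fold above it (1.02 to 1.53), and S_PXT1 was 1.26-fold above PMSCV (1.04 to 1.53). At the top, S_PXT1_K118R and WT (1.03, 0.88 to 1.21) and WT and S_PXT1 (1.18, 0.99 to 1.39) did not differ beyond counting error. In all, 8 of the 10 library pairs had intervals that excluded 1, more than for any other member.

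ARID2 (ENSG00000189079, chromosome 12, 45729665 to 45908040; BAF200, the ARID subunit of PBAF) had 53, 84, 76, 75 and 89 counts. Scaled, the order was S_PXT1 at 328 CPM, S_PXT1_K118R at 299.9, WT_K118R at 263, WT at 219 and PMSCV at 189 CPM. No 2 neighbours in that order differed beyond counting error, whereas the extremes did, at a fold of 1.74 (1.22 to 2.5). ARID2 made up 20.9% of the counts of ARID1A and ARID2 in PMSCV (16.1 to 26.5), 17.2% in WT (13.7 to 21), 31.6% in WT_K118R (26.2 to 37.3), 26.8% in S_PXT1 (21.9 to 32.0) and 21.7% in S_PXT1_K118R (17.5 to 26.3). The WT interval lies below those of S_PXT1 and WT_K118R, and it overlaps those of PMSCV and S_PXT1_K118R.

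**Figure D2:**
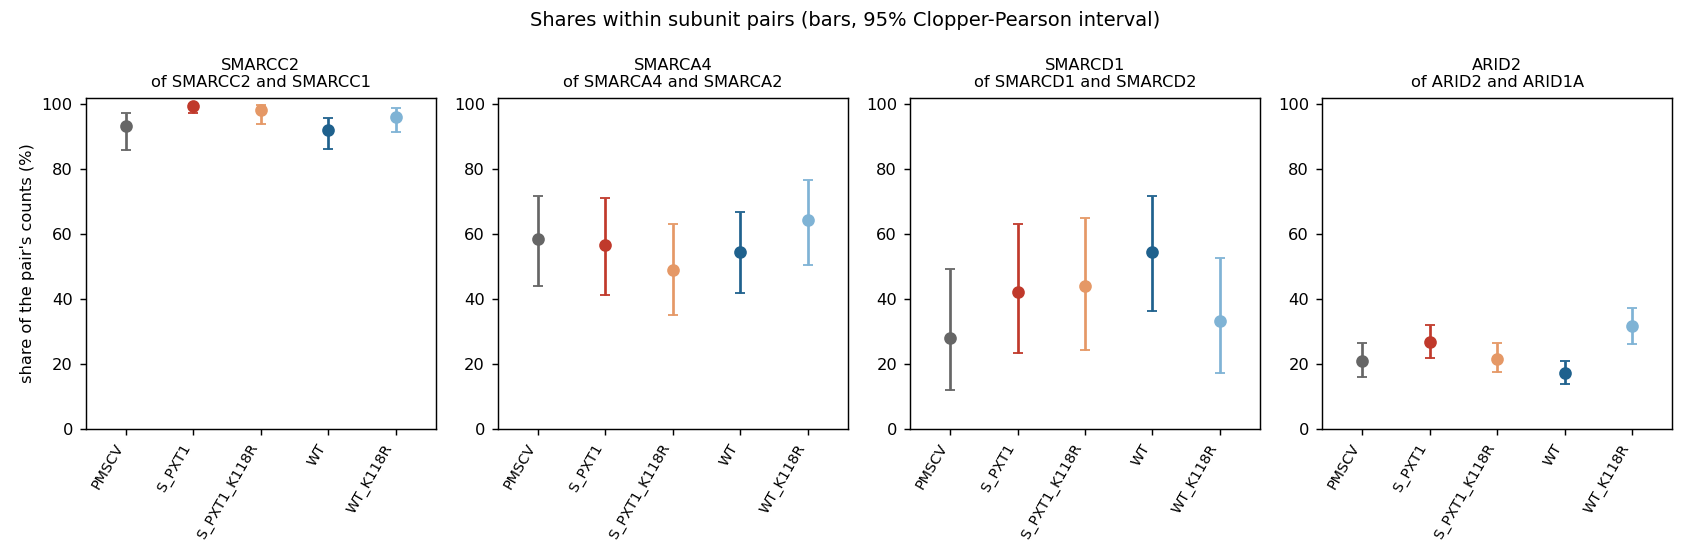
Share (%) of the first gene in the summed counts of 4 subunit pairs in the 5 libraries, with 95% Clopper-Pearson intervals as bars. SMARCC2 holds 92.0% to 99.5% of its pair, the ATPase and SMARCD shares have wide overlapping intervals, and ARID2 goes from 17.2% in WT to 31.6% in WT_K118R.

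The library labelled S_PXT1 was compared with the vector library PMSCV. SMARCC2 was 2.79-fold higher (2.15 to 3.64), ARID2 1.74-fold (1.22 to 2.5), and SMARCE1 and ARID1A each 1.26-fold (1.06 to 1.5 and 1.04 to 1.53). The ATPases SMARCA4 (0.92, 0.52 to 1.60) and SMARCA2 (1.0, 0.52 to 1.91) had intervals that included 1. By a 2-fold difference in log2(CPM + 1), 1 of 10 members was higher, SMARCC2, against 8.64% of the 13352 genes entering, and 1 was lower, SMARCC1, with 1 count against 6, where 43.8% of genes were lower. At a mean of 20 counts or more, 1 of 7 members was higher by 2-fold and 0 lower, beside 3.49% and 7.82% of genes. The sum of SMARCC2 and MYL6, in which MYL6 has the larger part, did not reach 2-fold, and it is not a fold of SMARCC2. Intervals lay above 1 for 4 of these 7 members, against 23% of the 1547 genes, and below 1 for 0 members, against 10.8%. The median log2 ratio of the 10 members was 0.27 and that of all genes entering -0.57, but well-covered genes (a mean of at least 100 counts) had a median of 0.28. Scaled to those well-covered genes, SMARCE1 stood at 1.05 (0.88 to 1.24), ARID1A at 1.05 (0.86 to 1.27), ARID2 at 1.44 (1.01 to 2.07) and SMARCC2 at 2.31 (1.79 to 3.02). On that scale the intervals of SMARCE1 and ARID1A included 1, and those of SMARCC2 and ARID2 lay above it. With total counts as the scale, ARID1A stood at 1.19 (0.98 to 1.44) and SMARCE1 at 1.18, and with SMARCE1 as the scale ARID2 stood at 1.38 (0.97 to 1.98), all with intervals that included 1.

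The comparison of WT with PMSCV shares the PMSCV library. ARID1A was 1.48-fold higher (1.24 to 1.77), and it was the member of 7 at a mean of 20 counts whose interval lay above 1, against 14% of such genes; none lay below, against 5.69%. SMARCC2 (1.25, 0.94 to 1.67), SMARCB1 (1.31, 0.94 to 1.84), SMARCE1 (1.15, 0.98 to 1.36) and ARID2 (1.16, 0.80 to 1.68) all had intervals that included 1. The 2-fold rule called 1 of 10 members higher, SMARCD1, on 18 counts against 7 (2.11, 0.84 to 5.96), where 20.3% of genes were higher, and 0 lower, where 23.2% were. None of 7 members at a mean of 20 counts was higher or lower by 2-fold, beside 2.71% and 2.65% of genes. The median of the members was 0.27, that of all genes -0.04 and that of well-covered genes 0.14.

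S_PXT1 and WT were set side by side without the vector, and both libraries also appear in the comparisons with PMSCV. SMARCC2 was 2.22-fold higher in S_PXT1 (1.78 to 2.79) and ARID2 1.5-fold (1.08 to 2.07), and ARID1A had a fold of 0.85 (0.72 to 1.01). By 2-fold, SMARCC2 alone was higher, beside 9.02% of genes, and SMARCC1 alone was lower, with 1 count against 11, beside 42.5%. At a mean of 20 counts or more, 1 of 7 was higher and 0 lower, beside 3.04% and 7.05% of genes. The sum of SMARCC2 and MYL6, mostly MYL6 counts, did not reach 2-fold. Of the 7 members at a mean of 20 counts, 2 had intervals above 1, against 13.4% of genes, and 0 below, against 10.2%. Scaled to the well-covered genes, ARID2 stood at 1.38 with an interval that included 1 (0.997 to 1.91), and ARID1A at 0.78 (0.66 to 0.92).

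With the substitution in both constructs, S_PXT1_K118R against WT_K118R, the difference lay in ARID1A instead. It was 1.9-fold higher in S_PXT1_K118R (1.58 to 2.30), whereas SMARCC2 had 1.2 (0.92 to 1.56) and ARID2 1.14 (0.83 to 1.57). No member passed 2-fold, where 8.94% of genes entering were higher and 42.7% lower, and at a mean of 20 counts 2.78% and 7.69%. ARID1A was the 1 member of 7 with an interval above 1, against 12% of genes, and 0 lay below, against 11.6%. The members' median was 0.09 and that of all genes -0.48.

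**Figure D3:**
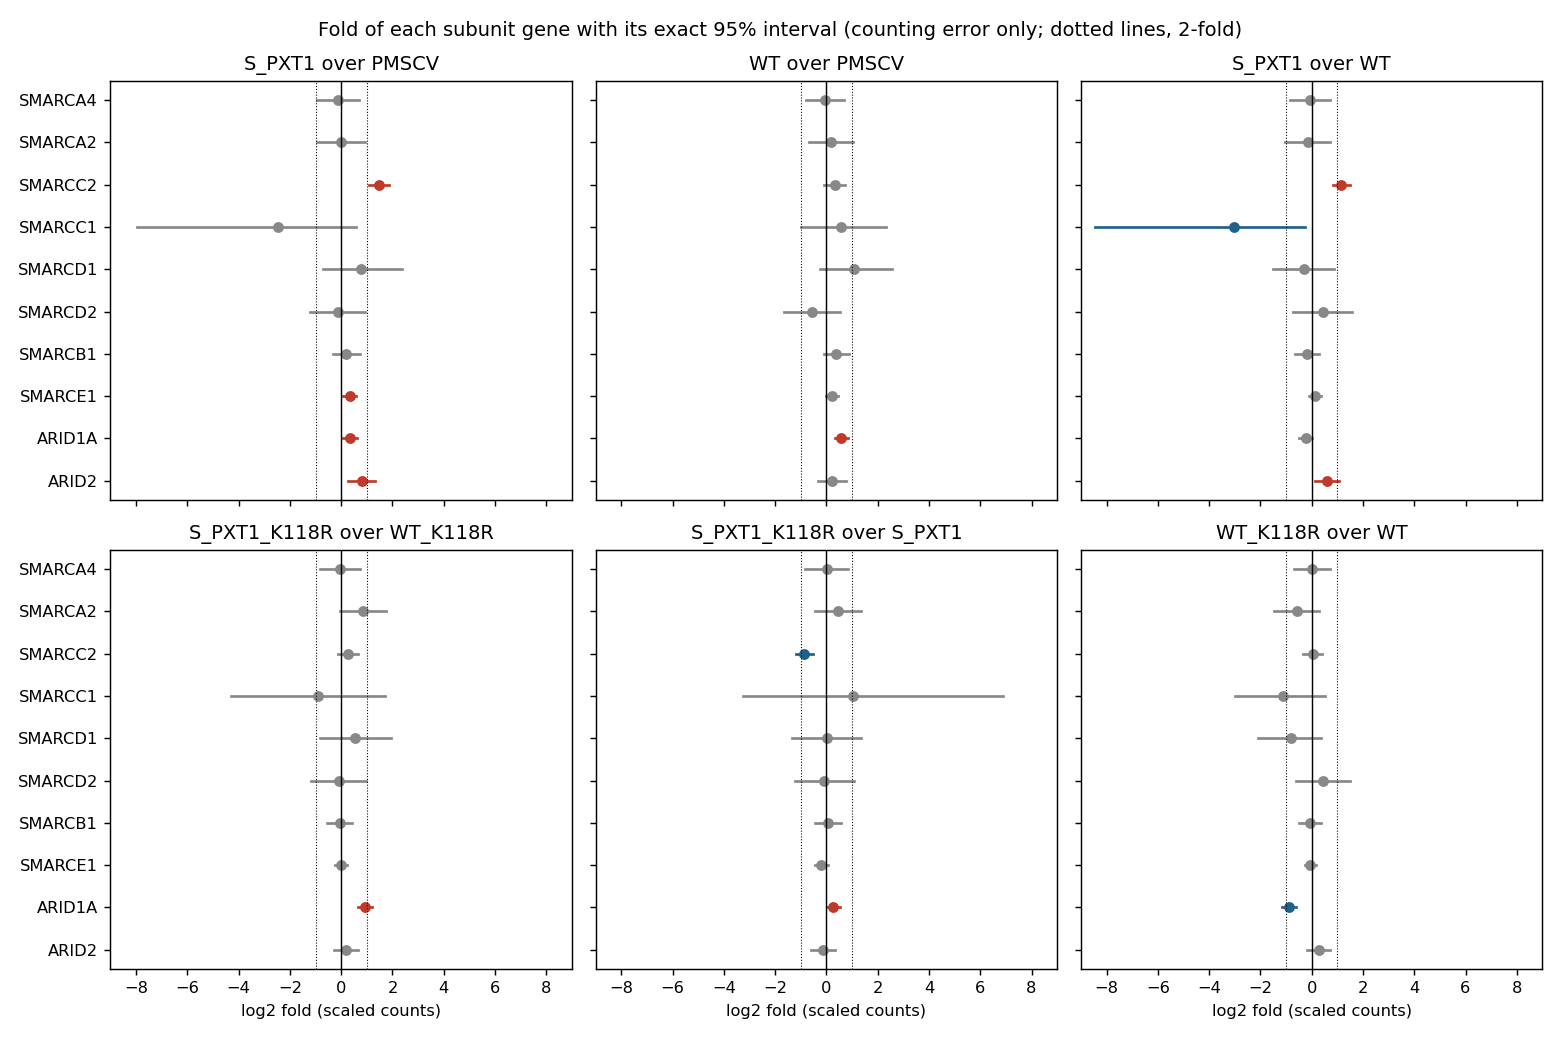
Log2 fold of TMM-scaled counts (horizontal axis, same range in all panels) of each subunit gene (vertical axis) in 6 library comparisons, with exact 95% intervals as lines, red where the interval lies above a fold of 1, blue where it lies below, and dotted lines at 2-fold. SMARCC2 is red with S_PXT1 over PMSCV and over WT and blue with S_PXT1_K118R over S_PXT1, and ARID1A is blue with WT_K118R over WT.

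Within the S_PXT1 construct, the library with K118R had less SMARCC2, 115 counts against 211, a fold of 0.55 (0.44 to 0.70) or 1.81-fold lower. ARID1A was higher, 1.21-fold (1.01 to 1.45). The other 5 members at a mean of 20 counts had intervals that included 1, from 0.87 (0.73 to 1.04) for SMARCE1 to 1.37 (0.74 to 2.57) for SMARCA2. No member passed 2-fold, beside 15.2% of genes higher and 17.6% lower, or 3.36% and 4.78% at a mean of 20 counts. Of these, 1 of 7 members had an interval above 1, against 7.37% of genes, and 1 below, against 9.31%. The members' median was 0.02 and that of all genes 0.00.

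Within the WT construct the library with K118R had less ARID1A, 193 counts against 362, a fold of 0.54 (0.45 to 0.65) or 1.85-fold lower. SMARCC2 did not follow, with 128 against 127 counts and a fold of 1.02 (0.79 to 1.32). SMARCE1 (0.97, 0.83 to 1.12), SMARCB1 (0.95, 0.70 to 1.28) and SMARCA4 (1.01, 0.62 to 1.66) lay near 1. SMARCC1, at 5 against 11 counts, was the 1 member of 10 lower by 2-fold, beside 20.9% of genes, and 0 were higher, beside 19.2%. At a mean of 20 counts 0 of 7 passed 2-fold, beside 2.46% of genes higher and 2.84% lower. Of these 7, 1 had an interval below 1, against 8.47% of genes, and 0 above, against 8.53%. Squamous, plasma cell and smooth muscle marker sums also differed between WT and WT_K118R, at 1046 and 590, 457 and 22, and 289 and 11 counts. Squamous genes went both ways, with KRT13 at 266 and 1 counts and KRT5 at 106 and 161. The blood markers summed to 317 and 153 counts. Among them SPI1 had 173 and 1, and LCP1 had 101 and 117. The prostate sums were 127 and 128 counts, and the fibroblast and endothelial sums 472 and 590. In S_PXT1 and S_PXT1_K118R, where the squamous, plasma cell and smooth muscle sums were at 2 counts or fewer and SPI1 had 139 and 128 counts, ARID1A stood at 897 and 1085 CPM. The part of any of these markers in the ARID1A difference was not tested.

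The K118R folds of the constructs share no library and could be set against each other. For ARID1A the fold within S_PXT1 was 2.24 times that within WT (approximate 95% interval from counting error 1.75 to 2.87). For SMARCC2 it was 0.54 times (0.39 to 0.75). For the other 8 members the interval of this ratio included 1, for example SMARCE1 at 0.90 (0.72 to 1.13) and SMARCA4 at 0.998 (0.489 to 2.04).

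The genes nearest to SMARCC2 and ARID1A across the 5 libraries were listed as a description, by the root mean square difference in log2(CPM + 1) after each gene's own mean was removed, over 1546 candidates averaging 20 counts or more. Nearest to SMARCC2 were IKZF2, a zinc finger factor of lymphocytes (0.12), PBX3, a homeobox factor (0.18), ZDHHC3, a palmitoyltransferase (0.18), GATA2, a factor of blood progenitors (0.21), and VIRMA, a subunit of the mRNA methylation machinery (0.22). The median candidate lay at 0.49. All 5 were highest in S_PXT1, from 261 CPM for IKZF2 to 788 CPM for GATA2, which follows from their choice by likeness. Nearest to ARID1A were UBE2B, a ubiquitin-conjugating enzyme (0.097), HNRNPKP4, a pseudogene model whose reads may belong to HNRNPK (0.099), SMAD7, an inhibitor of TGF-beta signalling (0.10), TMEM263 (0.10) and EPS15, an endocytic adaptor (0.11), with a median candidate at 0.38. These 5 were lowest in WT_K118R, from 50.2 CPM for SMAD7 to 470 CPM for UBE2B, again by the way they were picked. Nearest to ARID2 were ZNF207 (0.054) and TENT4B (0.056), beside a median candidate at 0.30.

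**Figure D4:**
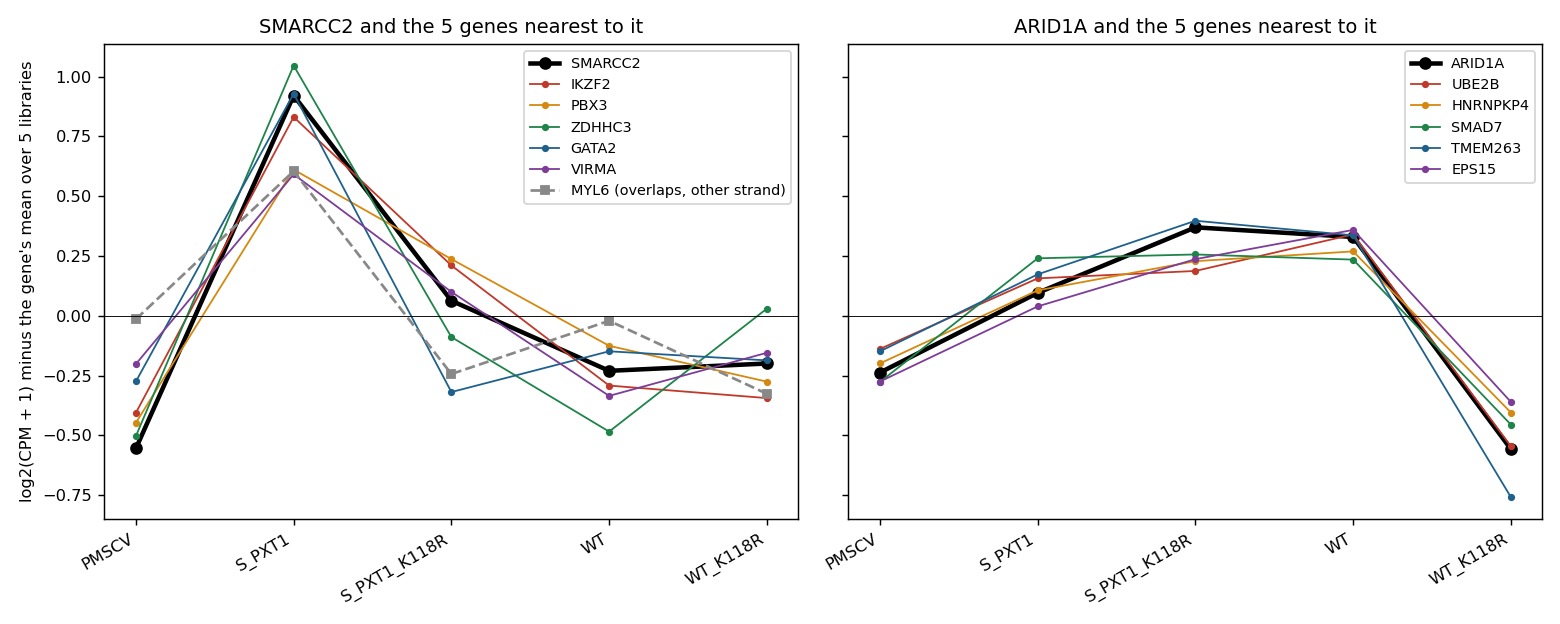
Log2(CPM + 1) minus the gene's own mean over the 5 libraries (vertical axis) for SMARCC2 (left) and ARID1A (right) in black, each with its 5 nearest genes in colour, and MYL6 dashed in grey; lines join the values of 1 gene and imply no order of the libraries (horizontal axis). SMARCC2 and its nearest genes peak in S_PXT1, and ARID1A and its nearest genes are lowest in WT_K118R. The shared shapes follow from picking the genes by likeness in these libraries.

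The other subunits of the complexes were examined as a list of 19 genes, of which 18 entered and 6 had a mean of at least 20 counts. Those 6 were PBRM1, DPF2, PHF10, SS18, ACTB and BCL7C. PBRM1, the polybromo subunit of PBAF, had 85, 90, 98, 75 and 95 counts, and was 1.61-fold higher in S_PXT1 than in WT (1.17 to 2.21), beside 1.5 for ARID2. It was also 1.38-fold higher in S_PXT1_K118R than in WT_K118R (1.03 to 1.85), beside 1.14 (0.83 to 1.57) for ARID2. Over PMSCV, PBRM1 had a fold of 1.16 (0.85 to 1.58) in S_PXT1, beside 1.74 (1.22 to 2.5) for ARID2. In WT, PBRM1 had 0.72 (0.52 to 0.997), beside 1.16 (0.80 to 1.68) for ARID2. The intervals of these PBAF genes overlapped in both comparisons with PMSCV. PHF10 had 50 to 60 counts and DPF2 54 to 81, and neither had an interval that excluded 1 in any of the 6 comparisons. ACTB, the actin that is also a subunit of the complex, had 93, 27, 48, 104 and 107 counts, a fold of 0.32 (0.20 to 0.49) in S_PXT1 against PMSCV and 0.35 (0.22 to 0.53) against WT. In S_PXT1_K118R its fold was 0.60 (0.42 to 0.85) over WT_K118R and 1.80 (1.10 to 3.0) over S_PXT1. BCL7C had 36, 27, 12, 42 and 0 counts, and in WT_K118R it was at least 13.8-fold lower than in WT, taking 3 counts as that library's upper limit. By the 2-fold rule, 0 of 18 were higher and 7 lower with S_PXT1 over PMSCV, and 0 and 9 with S_PXT1 over WT, shares of lower genes to be read against the 43.8% and 42.5% of all genes. WT over PMSCV gave 3 higher and 2 lower, beside 20.3% and 23.2% of all genes. S_PXT1_K118R over WT_K118R gave 2 and 4, beside 8.94% and 42.7%, and S_PXT1_K118R over S_PXT1 gave 3 and 2, beside 15.2% and 17.6%. WT_K118R over WT gave 1 and 4, beside 19.2% and 20.9%. Of the 6 with a mean of 20 counts, at most 1 was called in any comparison, either ACTB or BCL7C. Of all 1547 genes at that mean, between 2.46% and 7.82% were called in each direction.

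Other remodeller families served as a further comparison. In S_PXT1 over PMSCV the members at a mean of 20 counts had a median log2 ratio of 0.33, beside 0.18 for 11 CHD and NuRD genes, -0.05 for 8 ISWI genes, -0.12 for 6 INO80, SRCAP and TIP60 genes, -0.04 for the 6 other SWI/SNF subunits and 0.20 for all 1547 genes. CHD3, MTA2 and MTA1, subunits of NuRD, were 1.37-fold (1.12 to 1.68), 1.35-fold (1.18 to 1.55) and 1.32-fold (1.07 to 1.63) higher. MBD2, a methyl-CpG-binding subunit, had 18 counts against 14, with an interval that included 1 (0.66 to 3.06). BAZ1B, an ISWI partner, had 16 counts against 35, a fold of 0.50 (0.26 to 0.93). SRCAP, the ATPase that loads H2A.Z, had 16 counts against 50, a fold of 0.35 (0.19 to 0.63). Of the same list, YY1, an INO80-associated factor, was also lower (319 against 413 counts) and EPC2 was higher (117 against 92). Both had intervals that excluded 1, whereas that of MORF4L1, on 18 against 33 counts, included 1. In WT_K118R over WT, the ISWI-associated BAZ2A was lower, at 0.46 (0.30 to 0.68). YY1 was higher at 1.77 (1.53 to 2.04), as was SRCAP, on 48 against 26 counts with an interval above 1. HDAC2, a deacetylase of NuRD, was higher too, at 1.74 (1.35 to 2.25). In S_PXT1_K118R over S_PXT1, BAZ1A had 11 counts against 34, a fold of 0.33 (0.15 to 0.66). BAZ2A was lower there too, on 21 against 41 counts with an interval below 1, whereas ARID1A was higher.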

How the data were processed

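RNA was sequenced from 5 libraries of Ba/F3 cells. Per the file headers, 1 deposited table holds the authors' raw counts and FPKM values for human gene models. Tools listed in the submitters' processing notes are HISAT2 2.2.1, cutadapt 1.9 and FastQC. For the counter, its strand setting, the build and the annotation: not given in the sources used here. All value columns matched a library, so 0 were left out.

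Counts were scaled by TMM in edgeR 4.0.16 under R 4.3.3, over genes with a mean of at least 1 CPM. Folds are ratios of scaled counts with exact 95% intervals, levels carry exact Poisson intervals and shares Clopper-Pearson intervals (SciPy 1.17.1). Since the reads carry no molecular identifiers, intervals cover counting error only. Calls use 2-fold on log2(CPM + 1). The interval code was tested on simulated data. Alternatives were pseudocounts of 0.1 and 5 CPM, no filter or 20 counts, thresholds of 1.5- and 3-fold, DESeq2 1.42.0 size factors, total counts, FPKM, and overlapping models summed. The members and lists were chosen with earlier results of these data known. Named were all members and their overlapping models, and up to 5 nearest genes per member. In a comparison, up to 4 genes of each other list at a mean of 20 counts were named. These were not always the largest ratios. In S_PXT1 over PMSCV, YY1 was named and EPC1, with a larger ratio on 25 against 20 counts, was not. Naming all 6 such other subunits, and single marker genes, was decided after their values were seen.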

Additional observations from a re-analysis of the deposited data

Results flagged for a closer look

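ARID1A went in opposite directions with the K118R substitution in the construct backgrounds, and both intervals excluded 1. The fold of K118R over the unsubstituted construct was 1.21 (1.01 to 1.45) in the S_PXT1 background, on 275 against 230 counts, and 0.54 (0.45 to 0.65) in the WT background, on 193 against 362 counts. Each background has 1 library with and 1 without the substitution, so the difference between backgrounds was not tested against replicates.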

How the results depend on the processing

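No paired analysis was possible because each group holds 1 library and the replicate number only names it. Of 414 recomputed member folds, 410 stayed within their interval. On the other side of 1 lay 15, for example SMARCB1 in S_PXT1 over PMSCV (0.95 when scaled to genes averaging 100 counts or more), 0 of them folds whose interval excluded 1. The 4 outside their interval came from alternatives added after seeing the data. Deposited FPKM is close to a total-count scale, so its folds were hardly a separate check. Whether the interval excluded 1 changed for 1 of 42 folds with DESeq2 size factors and 3 of 42 with total counts. It changed for 4 of 42 when scaled to genes averaging 100 counts or more, and 4 of 36 when scaled to SMARCE1. Summing models that overlap on both strands, SMARCC2 with MYL6, gave 1.898 over PMSCV and 1.774 over WT in S_PXT1, and left 0 members higher by 2-fold in both comparisons. Most counts of that sum are of MYL6, so these are not folds of SMARCC2 alone. In S_PXT1 over PMSCV, SMARCE1 was 1.05 when scaled to genes averaging 100 counts or more, and ARID1A was 1.0 when scaled to SMARCE1. The former scaling shifts that comparison by -0.27 log2 and moved the members' median to -0.0015, and to 0.12 for WT over PMSCV. Summing models on 1 strand does not bear on MYL6, which lies on the other strand.

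Counts of members moved where they rested on SMARCC1 or SMARCD1. With only genes averaging 20 counts or more, the lower count became 0 in S_PXT1 over PMSCV, S_PXT1 over WT and WT_K118R over WT, and the higher count 0 in WT over PMSCV. That higher count was also 0 with a pseudocount of 5 CPM, total counts, FPKM and the added scaling, and the WT_K118R over WT lower count 0 with 5 CPM and FPKM. At 1.5-fold, 3 of 10 were higher in S_PXT1 over PMSCV (12% of all genes), 2 higher and 1 lower in S_PXT1_K118R over WT_K118R (11.2% and 47%), 1 and 1 in S_PXT1_K118R over S_PXT1 (18.7% and 21.4%), and 3 lower in WT_K118R over WT (28.1%). At 3-fold the higher counts were 0 in S_PXT1 over PMSCV (7.42%), WT over PMSCV (16.2%) and S_PXT1 over WT (6.98%), and the lower count 0 in WT_K118R over WT (17.1%). Depth limits SMARCC1, SMARCD1 and SMARCD2 most, with 1 to 20 counts a library.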
